A study of Mus musculus with 13 samples.

Results

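The upstream arm of the Hippo pathway was described here through 10 genes that encode its core kinases, their scaffolds, the membrane-linked activators and an atypical cadherin pair: Stk3, Stk4, Sav1, Mob1a, Mob1b, Nf2, Wwc1, Frmd6, Fat4 and Dchs1. The genes were listed by name for their place in the pathway, and 10 of 10 were found among the 48795 genes of the count table. All 10 passed the filter on low counts in each comparison.

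In the Hippo pathway, STK3 and STK4 bind the scaffold SAV1 and phosphorylate the LATS kinases and their MOB1 partners, and LATS in turn phosphorylates YAP1 and TAZ, which keeps these coactivators out of the nucleus. NF2, WWC1 and FRMD6 link this kinase cascade to the cell membrane and cytoskeleton, while FAT4 and DCHS1 are very large cadherins that bind each other across neighbouring cells. In the developing brain the pathway is known for restraining the growth of neural progenitors, and TEAD factors are the DNA-binding partners of YAP1 and TAZ.

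RNA was sequenced from the right brain hemisphere of 13 mice of the C57BL/6J strain background at postnatal day 11, with the olfactory bulb and cerebellum removed. The 5 control mice were NexCre -/- YAP5SAnls +/-, so that they carried the transgene without Cre. The 5 nlsYAP5SA mice were NexCre +/- YAP5SAnls +/-, in which Cre under the control of the Neurod6 (NEX) gene switches on a nuclear form of YAP1 that LATS cannot inhibit. The 3 C57BL/6 mice were wild type and were not littermates of the others. Cre of this kind acts in the lineage of cortical and hippocampal excitatory neurons, and a hemisphere also holds cells outside that lineage. Control and nlsYAP5SA mice were littermates from 2 matings, and the labels assign neither the mating nor the sex to a mouse. Totals ran from 20871566 to 25524349 estimated counts per library, with medians of 24211508 in control, 21851691 in nlsYAP5SA and 22788250 in C57BL/6 mice.

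Levels are given in CPM, counts relative to the total of the library, adjusted by the trimmed mean of M-values (TMM) over the 13 libraries. Neurod6, the neuronal transcription factor whose locus carries the Cre, stood at 92.3, 110, 93.9, 98.5 and 91.5 CPM in control mice 1 to 5, at 55.2, 38.9, 48.1, 56.8 and 47.2 CPM in nlsYAP5SA mice 1 to 5 and at 103, 92.5 and 88.0 CPM in C57BL/6 mice 1 to 3. Every nlsYAP5SA library lay below every other library, and Neurod6 fell by 0.98 on the log2 scale against control (SE 0.09, edgeR adjusted p = 2.7e-05). Yap1 itself stood at 20.3, 20.0, 20.7, 20.2 and 22.3 CPM in control, 24.3, 26.6, 22.6, 24.3 and 23.2 CPM in nlsYAP5SA and 21.6, 19.4 and 20.6 CPM in C57BL/6 mice. The nlsYAP5SA libraries did not overlap either other group, and the log2 fold change against control was 0.23 (SE 0.06, edgeR adjusted p = 0.0361). The call of Yap1 was lost in 14 of 20 alternative fits, and whether reads of the transgene entered this gene's count was not tested. A check of the labels used 5 target genes of YAP1 and TAZ: Ccn1, Ccn2, Ankrd1, Amotl2 and Axl. The paper already reported these 5 genes as raised in the same mice, so their calls are no independent support. Ccn1, Ccn2, Amotl2 and Axl were called higher in nlsYAP5SA than in control mice, with log2 fold changes from 0.56 (Axl) to 2.48 (Ccn1). Ankrd1 was also called higher, but stood at only 0 to 0.252 CPM in control, beside 2.73 to 6.51 CPM in nlsYAP5SA mice. It passed the filter only through the nlsYAP5SA libraries, so its fitted value of 5.14 is not an exact fold. As a check of the labelled tissue, the cortical excitatory markers Slc17a7 and Tbr1 had control means of 833 and 79.9 CPM, so that neither was absent.

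Compared per length, in CPM per kb of summed exon, the 10 genes fell into a high pair and a low remainder. Wwc1 had the highest control mean, 28.7 CPM per kb (SD 1.57, n = 5), followed by Nf2 at 24.1 (SD 0.600), and their control libraries did not overlap. Mob1a at 8.16 (SD 0.814) and Stk4 at 7.93 (SD 0.724) overlapped each other and lay below Nf2. Sav1 followed at 3.91 (SD 0.199), below every Stk4 value and above every Dchs1 value, although its lowest control library and the highest of Mob1b both stood at 3.63. Dchs1 (2.96, SD 0.147), Mob1b (2.87, SD 0.541), Stk3 (2.48, SD 0.162), Frmd6 (2.31, SD 0.448) and Fat4 (1.85, SD 0.281) formed a run in which the control range of each gene overlapped that of its neighbour. Within single libraries Frmd6 still lay above Fat4 in 13 of 13. Further apart in the run, the control values of Dchs1 (2.75 to 3.13) lay above those of Stk3 (2.22 to 2.64) and of Fat4 (at most 2.24). The places from Wwc1 to Sav1 were held in the same order in nlsYAP5SA and C57BL/6 mice. With the length of the longest annotated transcript, an alternative chosen after seeing the data, Nf2 (34.8 CPM per kb in control) stood above Wwc1 (31.4), and Dchs1 moved from the sixth to the ninth place, so the order depends in part on which length is used.

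**Figure D1:**
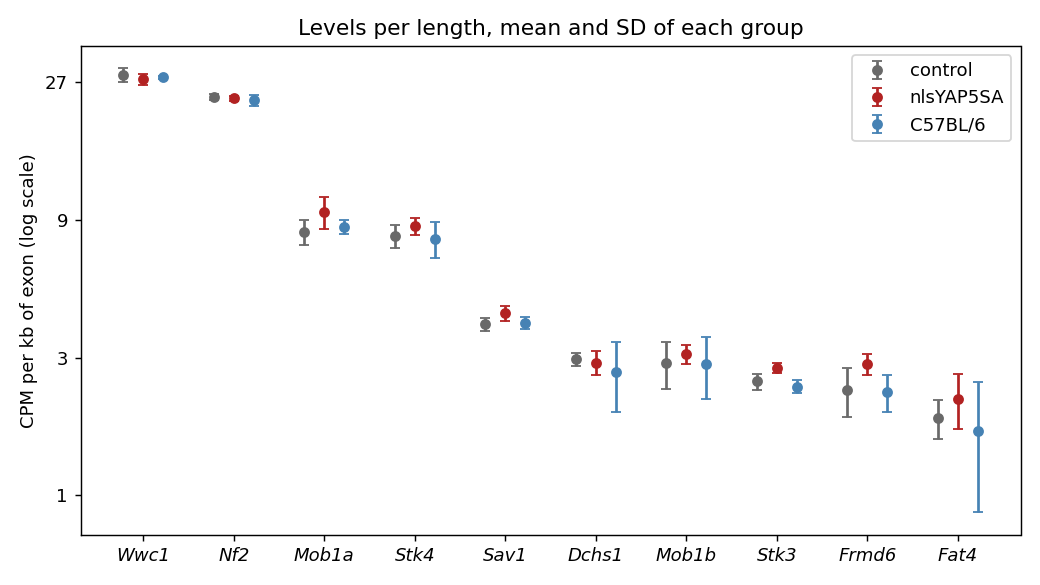
Mean level of each gene in CPM per kb of summed exon length (log axis), with SD bars, in control (n = 5), nlsYAP5SA (n = 5) and C57BL/6 (n = 3) mice. Wwc1 and Nf2 stand above the other genes in each group, and the span from Wwc1 to Fat4 is 15.5-fold in control means.

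The main comparison asked whether the transcripts of these upstream regulators differ when active YAP1 is switched on downstream of them. Of the 10 genes, 0 were called at an adjusted p of at most 0.05 in nlsYAP5SA against control by edgeR's quasi-likelihood test, beside 10.8% of all 16315 genes tested. DESeq2's Wald test also called 0 of 10, where it called 2239 genes in all. At an unadjusted p under 0.05 there were 3 of 10 (Stk3, Mob1a and Frmd6), beside 24.4% of all genes, so the share of these genes was near the background. The log2 fold change was positive for 7 genes, beside 48.7% of all genes tested, and negative for 3 (Nf2, Wwc1 and Dchs1). Its median was 0.12 beside -0.01 over all genes tested. Some of these genes varied together over the libraries (Mob1b and Fat4, Pearson r = 0.85), so their directions are not independent. For each gene the control and nlsYAP5SA libraries overlapped, while 10.1% of all genes tested had groups without overlap.

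Stk3 encodes a Ste20-like kinase (MST2) at the head of the core cascade and lies at chr15:34875496-35178921 of GRCm38, minus strand. It was measured at 13.6, 16.2, 15.3, 14.9 and 15.7 CPM in control mice 1 to 5, at 16.6, 16.8, 16.1, 17.2 and 17.9 CPM in nlsYAP5SA mice 1 to 5 and at 14.9, 13.7 and 15.1 CPM in C57BL/6 mice 1 to 3. Control 1 and C57BL/6 2 were the low libraries, and 4 of 5 nlsYAP5SA libraries lay above every control library, with nlsYAP5SA 3 just inside the control range. The log2 fold change against control was 0.16 (SE 0.07, 95% interval 0.01 to 0.30, edgeR adjusted p = 0.167), which did not pass the threshold. Stk4 encodes the closely related kinase MST1 (chr2:164070322-164155524, plus strand). Its control libraries held 42.6, 42.4, 50.2, 51.5 and 45.5 CPM, the nlsYAP5SA libraries 48.5, 55.6, 47.2, 51.1 and 48.0 CPM and the C57BL/6 libraries 44.6, 39.4 and 52.4 CPM. A single nlsYAP5SA library, replicate 2, exceeded every control library, and the difference of 0.11 on the log2 scale (SE 0.07, interval -0.04 to 0.26, edgeR adjusted p = 0.368) was within the spread between mice.

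Sav1 (chr12:69965012-69987002, minus strand) encodes the scaffold that holds the MST kinases in their active complex. Values of 19.1, 21.0, 21.3, 20.0 and 21.6 CPM in control mice stood beside 20.9, 23.9, 21.6, 23.8 and 22.6 CPM in nlsYAP5SA mice and 22.0, 20.5 and 20.1 CPM in C57BL/6 mice. The nlsYAP5SA replicates 2, 4 and 5 lay above the control range and replicates 1 and 3 inside it, for a log2 fold change of 0.13 (SE 0.06, interval -0.01 to 0.27, edgeR adjusted p = 0.234). Exons of Sav1 overlap those of Atl1 on the opposite strand, which held up to 2852 counts in a library, and the strand setting of the counting is not given in the sources used here, so the level of Sav1 is uncertain.

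Mob1a and Mob1b encode near-identical coactivators that bind LATS once phosphorylated by the MST kinases. For Mob1a (chr6:83326016-83343776, plus strand) the control libraries had 33.0, 40.0, 42.7, 37.9 and 41.9 CPM, the nlsYAP5SA libraries 40.1, 48.8, 40.2, 53.4 and 48.0 CPM and the C57BL/6 libraries 42.1, 38.1 and 42.5 CPM. The same nlsYAP5SA replicates as for Sav1 (2, 4 and 5) stood above every control library, and replicates 1 and 3 were inside the control range. Its log2 fold change was 0.24 (SE 0.09, interval 0.04 to 0.44, edgeR adjusted p = 0.132), with adjusted p between 0.0564 and 0.383 over 20 alternative fits. Mob1b (chr5:88720855-88764220, plus strand) ran through 32.0, 41.1, 54.6, 42.7 and 45.6 CPM in control, 43.1, 49.3, 42.0, 49.5 and 47.5 CPM in nlsYAP5SA and 43.4, 32.1 and 52.7 CPM in C57BL/6 mice. Here the nlsYAP5SA libraries all fell within the control range, whose ends were control 1 and control 3 (log2 fold change 0.10, interval -0.14 to 0.34, edgeR adjusted p = 0.633).

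Nf2 and Wwc1 were the members with the highest levels per length. Nf2 (chr11:4765845-4849536, minus strand) encodes Merlin, a tumour suppressor that recruits LATS to the membrane. Its level was 165, 164, 166, 157 and 168 CPM in control, 167, 158, 164, 162 and 159 CPM in nlsYAP5SA and 168, 154 and 158 CPM in C57BL/6 mice. No nlsYAP5SA library left the control range, the coefficient of variation in control was 2.50%, and the log2 fold change of -0.02 had a 95% interval from -0.11 to 0.07 (edgeR adjusted p = 0.823). Wwc1 (chr11:35838400-35980527, minus strand) encodes KIBRA, a WW-domain scaffold that binds NF2 and LATS. It gave 133, 141, 150, 150 and 138 CPM in control, 139, 131, 133, 145 and 139 CPM in nlsYAP5SA and 141, 138 and 139 CPM in C57BL/6 mice. The groups overlapped widely, with nlsYAP5SA 2 below the control range, and the log2 fold change was -0.05 (interval -0.16 to 0.06, edgeR adjusted p = 0.556).

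Frmd6 (chr12:70825514-70902234, plus strand) encodes a FERM-domain protein related to Drosophila Expanded. The control libraries held 10.8, 13.6, 18.4, 16.3 and 14.7 CPM, the nlsYAP5SA libraries 18.9, 19.2, 15.6, 18.4 and 19.0 CPM and the C57BL/6 libraries 13.3, 13.4 and 17.0 CPM. Control 1 was low and control 3 high, and 4 of 5 nlsYAP5SA libraries lay above all controls while replicate 3 lay in their midst. The log2 fold change of 0.30 (SE 0.12, interval 0.04 to 0.56) was the largest among the 10 genes in this comparison and had an edgeR adjusted p of 0.137. Without control replicate 3 it reached 0.39 with an edgeR adjusted p of 0.0450, so that 1 library decided on which side of the threshold Frmd6 fell; over 20 alternative fits the adjusted p ran from 0.0450 to 0.628.

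Fat4 and Dchs1 encode the receptor and ligand cadherins of the Fat-Dachsous system. Fat4 (chr3:38886940-39011985, plus strand) stood at 25.7, 31.4, 38.4, 29.4 and 34.1 CPM in control, at 28.4, 39.7, 29.8, 48.0 and 39.1 CPM in nlsYAP5SA and at 24.1, 17.8 and 44.0 CPM in C57BL/6 mice. The nlsYAP5SA replicates 2, 4 and 5 were above the control range, as for Sav1 and Mob1a, and the C57BL/6 libraries spread from the lowest of the 13 values in replicate 2 to 44.0 in replicate 3. Its log2 fold change against control was 0.22 (SE 0.14, interval -0.09 to 0.53, edgeR adjusted p = 0.379). Dchs1 (chr7:105752990-105787654, minus strand) had 33.1, 34.6, 33.6, 30.4 and 31.9 CPM in control, 31.7, 29.1, 28.6, 36.0 and 33.4 CPM in nlsYAP5SA and 28.8, 21.9 and 37.7 CPM in C57BL/6 mice. Both the lowest and the highest of its 13 values were C57BL/6 libraries, replicates 2 and 3, and the log2 fold change of nlsYAP5SA against control was -0.04 (interval -0.20 to 0.11, edgeR adjusted p = 0.750). Exons of Fat4 overlap an antisense gene, C230034O21Rik, with up to 180 counts in a library, and those of Dchs1 overlap the pseudogene Gm15645 with up to 4, which makes Fat4 uncertain in the same way as Sav1.

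**Figure D2:**
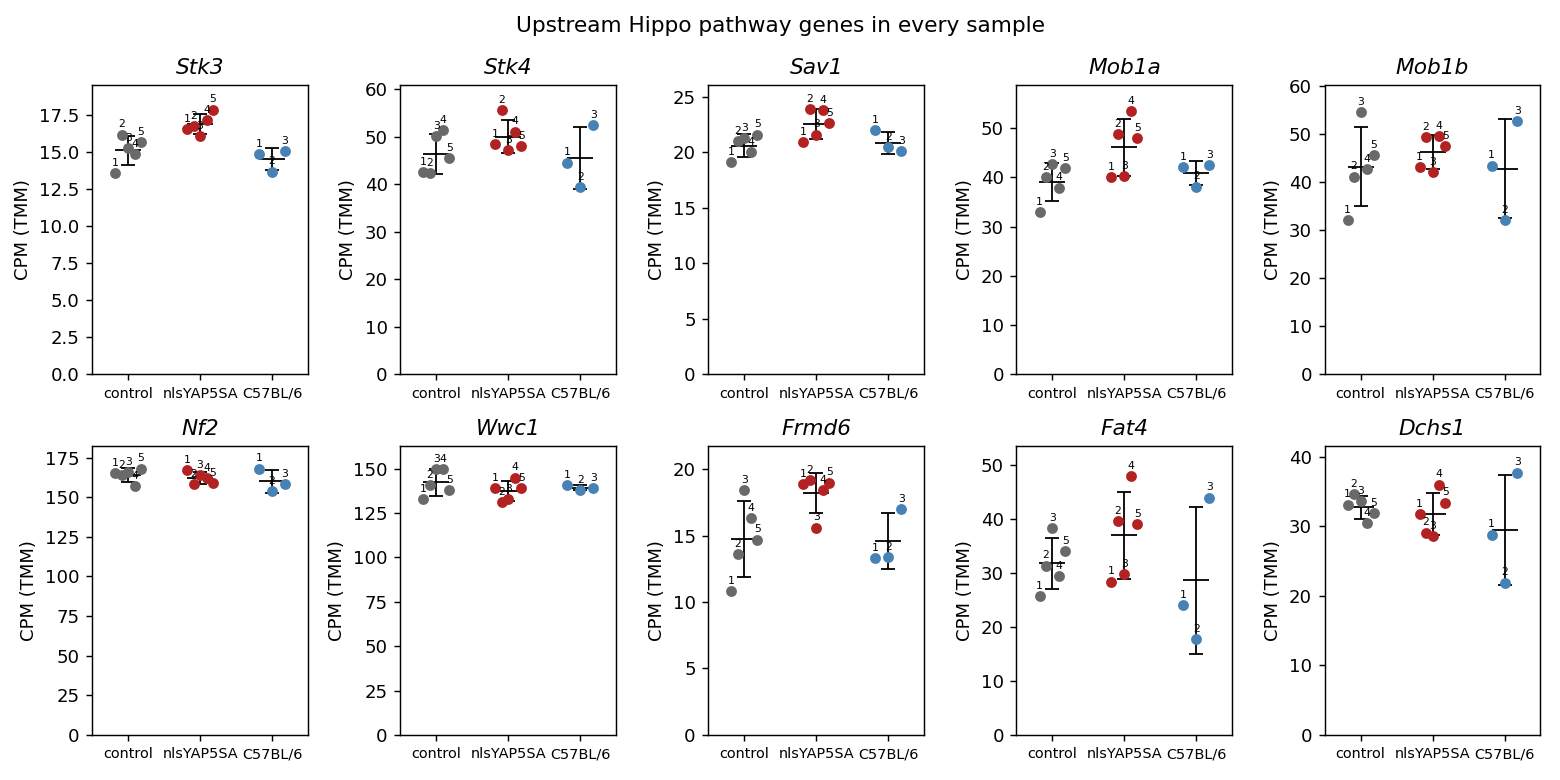
Level of each of the 10 genes in CPM (axes from 0) in every control, nlsYAP5SA and C57BL/6 library. Points are single mice with their replicate numbers, and black marks show the mean with SD bars; the control and nlsYAP5SA points overlap for each gene.

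The wild type mice were compared with control mice to see whether the unrecombined transgene or the littermate background came with a difference in these genes. Of the 10 genes, 0 were called in C57BL/6 against control by edgeR, beside 0.169% of all 16546 genes tested (0.0484% higher and 0.121% lower). At an unadjusted p under 0.05 edgeR also gave 0 of 10, beside 3.78% of all genes, and DESeq2 called 0 of 10, where it called 59 genes in all. No member had groups without overlap, beside 3.34% of all genes. The log2 fold changes ran from -0.15 for Fat4 (SE 0.25, interval -0.71 to 0.42) and Dchs1 (SE 0.15, interval -0.48 to 0.18) to 0.07 for Mob1a (SE 0.09, interval -0.14 to 0.27), with a median of -0.03 beside 0.00 over all genes. In Fat4, Dchs1 and Mob1b the C57BL/6 replicates 2 and 3 lay far apart, and the coefficient of variation among C57BL/6 mice was 47.9% for Fat4. The gap was not limited to these genes, as Lats1 stood at 40.0 and 76.7 CPM in the same libraries. Over 16208 genes this pair had the highest chi-square per degree of freedom of all pairs within a group (107.99). The next highest was 77.33, for nlsYAP5SA 1 and 4.

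The nlsYAP5SA mice were also set against the C57BL/6 mice, a comparison that shares its samples with each of the others. Again 0 of 10 genes were called by edgeR, beside 6.38% of all 16641 genes tested (4.16% higher and 2.22% lower), and 0 of 10 by DESeq2, where it called 1527 genes in all. By edgeR 2 of 10 (Stk3 and Frmd6) had an unadjusted p under 0.05, beside 21.0% of all genes. Stk3 had a log2 fold change of 0.20 (SE 0.08, interval 0.03 to 0.37, edgeR adjusted p = 0.165), and its 5 nlsYAP5SA libraries, from 16.1 to 17.9 CPM, lay above the 3 C57BL/6 libraries, from 13.7 to 15.1 CPM. It was 1 of 10 genes without overlap, beside 15.2% of all genes tested. Frmd6 differed by 0.31 (SE 0.11, interval 0.06 to 0.56, edgeR adjusted p = 0.149) and Fat4 by 0.35 (SE 0.27, interval -0.26 to 0.96, edgeR adjusted p = 0.508). Without C57BL/6 replicate 3 these values were 0.44 and 0.81, with edgeR adjusted p of 0.0329 and 0.0400, so both genes were called only where that library was left out, and without replicate 2 the value of Fat4 was 0.12. The other 7 genes ran from -0.03 for Wwc1 to 0.16 for Mob1a, and the median over the 10 was 0.11 beside -0.01 over all genes. Over 18 alternative fits Stk3 ran from 0.13 to 0.24, Sav1 from 0.04 to 0.14 and Mob1a from 0.05 to 0.21.

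Ratios of related members within a library need no scaling between libraries. The log2 ratio of Stk3 to Stk4 counts was -1.65, -1.39, -1.71, -1.79 and -1.53 in control, -1.55, -1.73, -1.55, -1.57 and -1.42 in nlsYAP5SA and -1.58, -1.53 and -1.80 in C57BL/6 mice. Stk4 thus gave more counts than Stk3 in each of the 13 libraries, and the groups overlapped (difference of means 0.05 for nlsYAP5SA against control, two-sided exact permutation p = 0.556). The ratio of Mob1a to Mob1b was 0.04, -0.04, -0.35, -0.17 and -0.12 in control, -0.10, -0.01, -0.06, 0.11 and 0.01 in nlsYAP5SA and -0.04, 0.25 and -0.31 in C57BL/6 mice. It differed by 0.12 between nlsYAP5SA and control mice (exact permutation p = 0.167), with the groups overlapping. For Fat4 to Dchs1 the ratio was -0.37, -0.14, 0.19, -0.05 and 0.09 in control, -0.16, 0.45, 0.06, 0.41 and 0.23 in nlsYAP5SA and -0.26, -0.30 and 0.22 in C57BL/6 mice. The nlsYAP5SA replicates 2, 4 and 5 exceeded each control ratio, and the difference of 0.25 had an exact permutation p of 0.143. Over the 9 tests of 3 ratios in 3 comparisons the Benjamini-Hochberg adjusted p was between 0.536 and 0.857, where the smallest unadjusted p that permutations can give is 0.00794 for 5 against 5 and 0.0357 for 5 against 3 mice.

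The rest of the pathway was taken from 8 lists with 82 genes, of which 81 were tested in nlsYAP5SA against control. There 13 were called higher and 1 lower, beside 7.36% and 3.44% of all genes, with a median log2 fold change of 0.05 beside -0.01 over all genes. In C57BL/6 against control edgeR called 0 of 81, beside 0.169% of all genes, and in nlsYAP5SA against C57BL/6 8 of 82 were called higher and 2 lower, beside 4.16% and 2.22% of all genes. The 2 called lower against C57BL/6 mice were Map4k2 and Rassf3. Vgll4 was called higher there, and none of these genes was called against control. Next below the upstream genes, 1 of 4 LATS and NDR kinases was called. Lats2, a kinase that phosphorylates YAP1 and whose gene is known as a YAP1 target, stood at 12.5, 14.5, 19.1, 17.0 and 17.0 CPM in control, 34.7, 35.8, 32.5, 34.2 and 37.7 CPM in nlsYAP5SA and 14.7, 15.8 and 17.9 CPM in C57BL/6 mice. All 5 nlsYAP5SA libraries lay far above the 8 others, and Lats2 rose by 1.12 on the log2 scale against control (SE 0.10, edgeR adjusted p = 1.5e-05). Its paralogue Lats1 had 50.3, 63.1, 75.3, 60.1 and 67.8 CPM in control, 61.1, 80.2, 64.4, 77.9 and 72.6 CPM in nlsYAP5SA and 59.4, 40.0 and 76.7 CPM in C57BL/6 mice. These groups overlapped (log2 fold change 0.17, interval -0.06 to 0.39, edgeR adjusted p = 0.348), and leaving out a mouse gave 0.10 to 0.23.

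Closest in family to the members, Wwc2, a paralogue of Wwc1, was called among 11 other MOB, WWC, FAT and Dachsous family genes. It stood at 47.6, 55.2, 59.1, 59.8 and 59.6 CPM in control, 82.4, 89.5, 85.6, 86.4 and 85.3 CPM in nlsYAP5SA and 51.9, 48.7 and 60.8 CPM in C57BL/6 mice. The nlsYAP5SA libraries lay above all others, and Wwc2 rose by 0.61 on the log2 scale (SE 0.06, edgeR adjusted p = 4.5e-05), unlike the value of -0.05 for Wwc1, although the difference between these paralogues was not tested. Of 10 MAP4K and TAO kinases, which can phosphorylate LATS in parallel to the MST kinases, Map4k3 rose by 0.23 (edgeR adjusted p = 0.0292). Of 6 RASSF proteins, which bind the MST kinases, Rassf4 rose by 0.55 (edgeR adjusted p = 0.00377). None of the 17 genes of the STRIPAK phosphatase complex, which dephosphorylates the MST kinases, was called by edgeR, with a median of 0.00. Among 18 polarity genes tested, Crb2 rose by 0.57 and Dlg5 by 0.20, and Prkcz fell by 0.16 (edgeR adjusted p = 0.00586, 0.0331 and 0.0379).

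Nearer to YAP1, 3 of 7 angiomotin, LIM and PTPN14 genes were called, all of them inhibitors or binding partners of LATS or YAP1. Amotl2 rose by 1.56 on the log2 scale, from a control mean of 16.2 CPM (SD 1.28) to 47.8 CPM (SD 3.57). Ajuba rose by 1.66, from 3.46 (SD 0.343) to 11.0 CPM (SD 1.17), and Ptpn14 by 0.94, from 12.1 (SD 2.68) to 23.4 CPM (SD 5.42). In each of these genes the 5 nlsYAP5SA libraries lay above the 5 control libraries (edgeR adjusted p = 1.1e-07, 1.1e-06 and 0.00477). Of 8 YAP/TAZ, TEAD and VGLL genes 4 were called: beside Yap1, the DNA-binding partners Tead1 and Tead3 rose by 0.78 and 0.75 (edgeR adjusted p = 0.00206 and 0.00581), and the TEAD cofactor Vgll3 rose by 2.79 (edgeR adjusted p = 1.1e-07). Wwtr1, which encodes TAZ, had a control mean of 38.4 CPM (SD 3.49) and an nlsYAP5SA mean of 38.7 CPM (SD 5.06), with a log2 fold change of 0.01 (interval -0.19 to 0.21). The calls of Map4k3, Prkcz and Dlg5 were lost in 10, 12 and 13 of 20 alternative fits, and those of Rassf4, Crb2, Ptpn14 and Tead3 in 1, the fit with Y-linked level as a covariate, where the log2 fold changes were 0.35, 0.53, 0.70 and 0.53. Against C57BL/6 mice Map4k3, Rassf4, Prkcz, Dlg5, Ptpn14, Yap1 and Tead3 were not called (edgeR adjusted p from 0.0636 to 0.276). Their log2 fold changes there were 0.29, 0.47, -0.17, 0.30, 0.67, 0.22 and 0.55 in the same order.

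**Figure D3:**
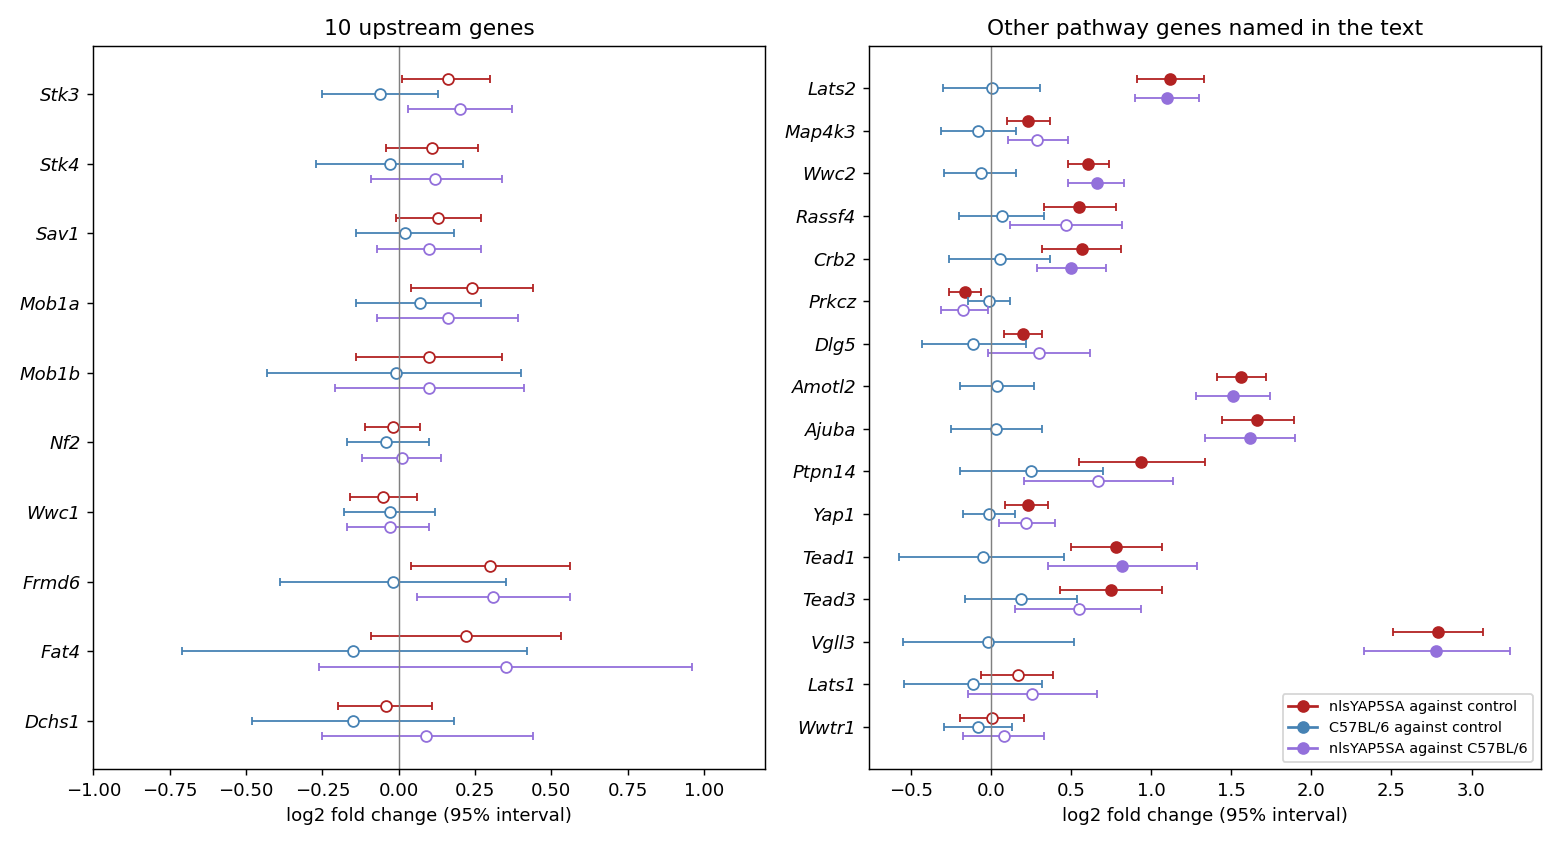
Log2 fold change with its 95% interval for the 10 upstream genes (left) and other pathway genes (right) in each of the 3 comparisons. Filled points were called at an adjusted p of at most 0.05 in edgeR and open points were not; the points on the left are all open.

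Some cell type markers differed between nlsYAP5SA and control mice, and so did the share of libraries with Y-linked transcripts. Fewer cells of a type and less RNA per cell cannot be told apart in such bulk tissue. The counts of called markers stand beside 7.36% of all genes called higher and 3.44% lower in nlsYAP5SA against control. Against C57BL/6 mice 2.22% of all genes were called lower. Of 8 microglial markers 7 were called higher in nlsYAP5SA than in control mice, and their summed level was 330, 315, 356, 392 and 375 CPM in control, 568, 593, 481, 572 and 621 CPM in nlsYAP5SA and 362, 396 and 330 CPM in C57BL/6 mice. The nlsYAP5SA sums lay above all others. Of 8 astrocyte markers 3 were higher (Gfap, Slc1a3 and Gja1) and 1 lower (S100b), led in abundance by Slc1a2, which was not called and made up 62.6% of the sum, with sums of 2986, 3532, 5447, 4675 and 4811 CPM in control, 5114, 6689, 5157, 4880 and 6144 CPM in nlsYAP5SA and 4061, 4119 and 5518 CPM in C57BL/6 mice. These sums overlapped, while Gfap did not: it stood at 173, 185, 170, 187 and 189 CPM in control, 771, 714, 648, 806 and 831 CPM in nlsYAP5SA and 181, 215 and 155 CPM in C57BL/6 mice, and rose by 2.06 on the log2 scale against control (edgeR adjusted p = 1.3e-08). Control 1 was the lowest control library for Stk3, Sav1, Mob1a, Mob1b, Wwc1, Frmd6 and Fat4. Among controls it was also lowest in the astrocyte sum, the pericyte and smooth muscle sum (242 CPM) and the fibroblast and meninges sum (330 CPM). It was highest in the sums for radial glia (468 CPM), ciliated ependymal cells (25.5 CPM) and choroid plexus (233 CPM). Of 7 radial glia and progenitor markers 4 were higher (Vim, Hopx, Pax6 and Prom1), and the sum, led by Fabp7, was 468, 446, 355, 383 and 367 CPM in control, 440, 388, 378, 570 and 440 CPM in nlsYAP5SA and 429, 366 and 287 CPM in C57BL/6 mice. Fabp7, which made up 51.1% of the sum, and Nes went the other way without a call. Their log2 fold changes against control were -0.39 and -0.23 (edgeR adjusted p = 0.276 and 0.405). Sox2 was not called either, with means of 42.1 CPM in control and 45.4 CPM in nlsYAP5SA mice. Of the excitatory neuron list, led by Slc17a7, 1 of 8 was lower, which was Neurod6 itself. The part of these cell types in the values of the pathway genes was not tested.

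Among the remaining lists, 0 of 6 interneuron markers and 0 of 6 oligodendrocyte markers were called in nlsYAP5SA against control by edgeR, with median log2 fold changes of 0.07 and -0.54. The oligodendrocyte sum, led by Mbp, was 2247, 2078, 3483, 3370 and 3244 CPM in control, 1720, 2870, 2258, 1332 and 2128 CPM in nlsYAP5SA and 2981, 4635 and 3331 CPM in C57BL/6 mice. The nlsYAP5SA and control sums overlapped, nlsYAP5SA 1 and 4 were the lowest, and against C57BL/6 mice the median was -0.92 with 2 of 6 markers called lower (Mog and Mag). Other calls in nlsYAP5SA against control were 2 of 6 lower for oligodendrocyte precursors (Gpr17 and Olig1), 2 of 6 lower for endothelial cells (Cldn5 and Cdh5), 2 higher (Acta2 and Tagln) and 2 lower (Rgs5 and Kcnj8) of 6 for pericytes and smooth muscle, and 1 higher and 1 lower of 7 for fibroblasts and meninges. For ciliated ependymal cells 1 of 6 was higher (Foxj1), while Pifo stayed under 1 CPM on average. For the choroid plexus 1 of 6 was higher (Folr1), and its sum, 87.5% of it Ttr, varied within groups, for instance from 306 CPM in nlsYAP5SA 2 to 12.9 CPM in nlsYAP5SA 4. With the Ttr level as a covariate edgeR called 0 of the 10 upstream genes in nlsYAP5SA against control, where it called 1480 genes in all.

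The summed level of the Y-linked genes Ddx3y, Eif2s3y, Kdm5d and Uty was 91.0, 114, 129, 114 and 124 CPM in control mice, 0.0904, 0.0942, 130, 135 and 0.0937 CPM in nlsYAP5SA mice and 119, 0 and 143 CPM in C57BL/6 mice. All 5 control libraries thus held at least 91.0 CPM of Y-linked transcripts. In contrast, nlsYAP5SA 1, 2 and 5 and C57BL/6 2 held at most 0.0942 CPM of them and 270 to 578 CPM of Xist. The covariate fit used the sum of the log2 CPM of these Y-linked genes, not the log2 of their sum. In it the calls in nlsYAP5SA against control dropped from 1761 to 554 genes, and 0 of the 10 upstream genes were called. There Stk3, Mob1a and Frmd6 had log2 fold changes of 0.14, 0.27 and 0.23 (edgeR adjusted p = 0.581, 0.383 and 0.628). As no control library lacked Y-linked transcripts, sex and genotype can be separated in that fit only through the nlsYAP5SA mice.

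The genes whose log2 CPM followed each member most closely over the 13 libraries were sought among 10023 others with a mean of at least 10 CPM. Such correlations mix differences between groups with differences between libraries and are given as a description. Sav1 was followed most closely by another member, Mob1a (Pearson r = 0.913), and then by the polarity gene Pard3 (0.897). Mob1a had Ptbp3 (0.943) and Naa50 (0.926) at its top, Stk3 had Twsg1 (0.960) and Dis3 (0.939), and Stk4 had Rnf111 (0.929) and Gse1 (0.925). The correlations were tightest for Mob1b, with Zfp729a (0.990) and Vcpip1 (0.985), for Fat4, with Zfp704 (0.972) and Rev3l (0.969), and for Frmd6, with Zfp942 (0.971) and Thsd4 (0.954). Dchs1 was followed by Ptprs (0.956) and Plxna1 (0.944). The weakest values belonged to Nf2, with Wdr41 (0.793) and Sec22b (0.785), and to Wwc1, with Pdp2 (0.824) and Nras (0.817).

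Promoter windows of RefSeq (GRCm38.p6), from 250 bases before to 50 after an annotated start, were matched by symbol for 8 of the 10 genes, in 9 windows. Stk3 and Dchs1 had no entry. They were searched for GGAATG, the core letters of the TEAD motif, and its reverse complement CATTCC, on both strands, and no other motif was searched. The letters occurred in 2 of the 9 windows, those of Sav1 and Mob1a, and in 4817 of all 32851 windows (14.7%). Among the check genes, Ankrd1 held 2 matches, Ccn1, Amotl2 and Axl 1 each, and Ccn2 had no entry. Lats2 held 1 in 1 of its windows. The windows of Sav1 and Mob1a are printed as those of the members that varied together most closely, and those of Lats2 and Amotl2 as genes that rose, with the matched letters in capitals. The windows of Stk4, Lats2, Amotl2 and Ankrd1 and 1 of those of Nf2 lie inside the limits of the gene in GENCODE, so they are not at its outermost start. A match describes the letters and not a bound site.
Sav1, chr12:69986953-69987252, minus strand: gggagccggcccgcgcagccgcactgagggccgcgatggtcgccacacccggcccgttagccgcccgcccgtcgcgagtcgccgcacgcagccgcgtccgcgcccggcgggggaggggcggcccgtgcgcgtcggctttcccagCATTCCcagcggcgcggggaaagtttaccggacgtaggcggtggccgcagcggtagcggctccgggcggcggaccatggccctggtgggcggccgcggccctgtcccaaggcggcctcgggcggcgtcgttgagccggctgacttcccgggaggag
Mob1a, chr6:83325789-83326088, plus strand: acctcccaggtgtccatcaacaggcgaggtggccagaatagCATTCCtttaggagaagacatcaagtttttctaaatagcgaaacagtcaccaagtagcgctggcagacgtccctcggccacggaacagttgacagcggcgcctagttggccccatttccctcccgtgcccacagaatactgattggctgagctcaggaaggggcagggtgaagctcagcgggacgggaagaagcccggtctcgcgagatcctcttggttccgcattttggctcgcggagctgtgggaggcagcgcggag
Lats2, chr14:57746074-57746373, minus strand: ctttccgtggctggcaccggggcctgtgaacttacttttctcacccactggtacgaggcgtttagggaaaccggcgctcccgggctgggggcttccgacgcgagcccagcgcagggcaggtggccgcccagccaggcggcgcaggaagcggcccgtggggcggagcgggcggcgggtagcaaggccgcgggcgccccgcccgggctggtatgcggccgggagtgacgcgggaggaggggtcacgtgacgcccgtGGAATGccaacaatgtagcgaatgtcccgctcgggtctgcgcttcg
Amotl2, chr9:102717554-102717853, plus strand: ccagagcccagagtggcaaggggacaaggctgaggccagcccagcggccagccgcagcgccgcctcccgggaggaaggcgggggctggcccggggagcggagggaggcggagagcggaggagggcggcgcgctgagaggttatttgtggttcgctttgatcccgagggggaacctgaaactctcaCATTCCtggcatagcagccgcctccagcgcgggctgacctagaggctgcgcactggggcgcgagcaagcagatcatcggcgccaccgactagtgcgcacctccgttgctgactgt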

How the data were processed

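Poly(A) RNA libraries (KAPA mRNA HyperPrep) of 13 mice were sequenced by the authors. The authors trimmed adapters with CutAdapt 1.5, mapped reads to GRCm38 (Ensembl release 86) with STAR and deposited estimated counts per gene from RSEM 1.3.0, 12.4 to 13.3% of them not whole. Samples were grouped by the genotype in the labels. Counts were rounded to whole numbers and tested with edgeR 4.0.16 (R 4.3.3): TMM scaling, filterByExpr by group (minimum count 10, minimum total 15), quasi-likelihood test between the groups compared, Benjamini-Hochberg adjustment over all genes tested and a threshold of 0.05. Intervals are 95% intervals from the standard error, taken as the log2 fold change divided by the root of the F statistic. DESeq2 1.42.0 was an alternative, as were other scalings, filters, covariates and leaving out each mouse. Ratios of counts (pseudocount 0.5) were tested by exact permutation (scipy 1.17.1). CPM used TMM over the 13 libraries, and exon lengths came from GENCODE release 21 for mouse, a later annotation of the same build. Symbols were found for 48435 identifiers, and the others held 0.0523% of counts. The steps were tested on simulated counts. Named genes were the 10 upstream genes, every gene of the pathway lists called in nlsYAP5SA against control, Lats1, Lats2, Yap1, Wwtr1, Neurod6, 5 target genes, the most abundant marker of some lists, and for each upstream gene the 2 genes with the highest correlation. Called marker genes, and the uncalled Nes and Sox2, were named after their values were seen. The members and lists were chosen with earlier results of these data known.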

Additional observations from a re-analysis of the deposited data

Results flagged for a closer look

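Of 68 groups of 5 values tested with Dixon's gap ratio (the gap of the end sample to its neighbour over the range of the group, critical value 0.71), 2 held a sample far from the others, where chance flags about 1 in 20. For Frmd6, nlsYAP5SA 3 stood at 15.6 CPM below the other nlsYAP5SA libraries at 18.4 to 19.2 CPM (ratio 0.781). For Wwtr1, control 1 stood at 32.2 CPM below the other control libraries at 39.4 to 40.9 CPM (ratio 0.830).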

How the results depend on the processing

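The 10 upstream genes kept a count of 0 called in each comparison under every alternative other than leaving out a mouse, where the count ran from 0 to 1 in nlsYAP5SA against control (Frmd6, without control replicate 3) and from 0 to 2 in nlsYAP5SA against C57BL/6 (Frmd6 and Fat4, without C57BL/6 replicate 3). The number of genes called moved by over 1.5 times from 1761 to 554 in nlsYAP5SA against control with Y-linked level as a covariate. In C57BL/6 against control it moved from 28 to 16 with at least 10 counts in every sample, to 59 with DESeq2's Wald test, to 44 with all 13 samples in a single fit and to 15 with the replicate block. In nlsYAP5SA against C57BL/6 it moved from 1061 to 47 with the replicate block, and from 401 to 1757 when a mouse was left out (401 without C57BL/6 replicate 1, 581 without 2 and 1757 without 3; 636, 645 and 509 without nlsYAP5SA replicates 1, 2 and 5). Same-numbered samples of nlsYAP5SA and control mice correlated at -0.315 to 0.312 in their deviations from the group means, and 1 of the 5 matched its own number best; in C57BL/6 against control the values were 0.120, -0.023 and 0.486, with 2 of 3 matching best, and in nlsYAP5SA against C57BL/6 0.073, -0.151 and -0.275, with 0 of 3. The labels do not say that the numbers pair mice. The block left 1239 calls in nlsYAP5SA against control. Directions turned only for log2 fold changes that were not called. In C57BL/6 against control, Sav1 became -0.01 with library size alone; Stk4, Mob1b and Frmd6 became 0.01, 0.01 and 0.05 with the replicate block; Stk4, Mob1b, Frmd6, Fat4 and Dchs1 became 0.06, 0.15, 0.05, 0.09 and 0.01 with Y-linked level as a covariate; Mob1b and Frmd6 became 0.04 and 0.04 with Ttr; and Mob1b became 0.01 with the offset for GC content and length. That offset also turned Wwc1 in nlsYAP5SA against C57BL/6 to 0.02 and Wwtr1 in nlsYAP5SA against control to -0.02. Leaving out a mouse gave, in C57BL/6 against control, -0.16 to 0.06 for Stk4, -0.02 to 0.04 for Sav1, -0.21 to 0.15 for Mob1b, -0.16 to 0.07 for Frmd6, -0.62 to 0.10 for Fat4, -0.39 to 0.03 for Dchs1, -0.10 to -0.02 for Stk3, 0.01 to 0.11 for Mob1a, -0.08 to -0.01 for Nf2 and -0.06 to -0.01 for Wwc1; in nlsYAP5SA against C57BL/6, -0.05 to 0.28 for Mob1b, -0.07 to 0.32 for Dchs1, 0.05 to 0.24 for Stk4, -0.05 to -0.02 for Wwc1, 0.12 to 0.81 for Fat4 and up to 0.05 for Nf2; and in nlsYAP5SA against control, -0.05 to 0.08 for Wwtr1. In that comparison no member turned, but values moved by over 1.5 times for Stk4 (0.07 to 0.15), Mob1b (0.01 to 0.19), Nf2 (-0.03 to -0.01), Wwc1 (-0.08 to -0.03), Fat4 (0.11 to 0.30) and Dchs1 (-0.09 to -0.01). The log2 ratios ran in C57BL/6 against control from -0.08 to 0.06 for Stk3 to Stk4, -0.05 to 0.23 for Mob1a to Mob1b and -0.22 to 0.04 for Fat4 to Dchs1, and in nlsYAP5SA against C57BL/6 from -0.01 to 0.13 and -0.11 to 0.17 for the first pairs and 0.22 to 0.48 for Fat4 to Dchs1. In nlsYAP5SA against control they ran from 0.01 to 0.10, 0.06 to 0.16 and 0.17 to 0.34 in the same order. The causes of these changes were not tested.

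Groups of 5 and 3 mice left wide intervals for some genes, such as -0.71 to 0.42 for Fat4 in C57BL/6 against control. Others were narrower, such as -0.11 to 0.07 for Nf2 in nlsYAP5SA against control. The 3 C57BL/6 mice were not littermates of the others. The share of libraries with Y-linked transcripts differed between the groups, and the protein and its phosphorylation were not analysed here. A p that misses the threshold does not show that levels were the same.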
